A study of Mus musculus with 4 samples.

Results

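The regions described here are 688 MIXL1 peaks whose centre lay inside a noncoding gene and away from protein-coding genes. They were selected by position from a single peak list deposited for the whole series, which holds 9598 peaks. The rule kept the 18 autosomes other than chromosome 12 (7791 peaks) and left out windows of 1 Mb with 20 or more peak centres, which left 7058 peaks. A member lay inside a gene that RefSeq does not class as protein-coding, inside no protein-coding gene, and more than 1 kb from the ends of protein-coding genes. The peak centre is the only measured value that the rule used besides the number of peaks per window.

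The study precipitated chromatin bound by FLAG-tagged MIXL1 from mouse epiblast stem cells that carried an inducible Mixl1 gene. Epiblast stem cells are pluripotent cells that stand for the epiblast of the embryo. They were kept on irradiated embryonic fibroblasts in medium with activin A at 20 ng/mL and bFGF at 10 ng/mL, formed embryoid bodies in serum for 2 days, and received 1 µg/mL doxycycline for the last 24 h. All 4 libraries came from induced cells: 2 from anti-FLAG M2 precipitation and 2 from input chromatin, so uninduced cells were not analysed here. The list names no library and gives no height, score or p-value. No peak therefore has a replicate error, the depth is unknown, and the labelled cell type could not be checked against marker genes. Peaks of 1 list are not replicates, so no test was run, and the 95% intervals cover counting error only.

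MIXL1 belongs to the paired-type homeodomain factors and is made in the primitive streak, where epiblast cells turn into mesoderm and definitive endoderm. Homeodomains bind short AT-rich sites with a TAAT core, and those of the paired type can bind as pairs to inverted repeats of that core. Long noncoding RNAs (lncRNAs) are transcripts without a long reading frame, and many lie beside genes of developmental transcription factors. A peak inside such a gene marks DNA near MIXL1 and shows neither that the RNA was made nor which gene the site acts on.

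The bound DNA can be read where a peak covered the start of a noncoding gene. RefSeq start windows (GRCm38.p6, the assembly that mm10 denotes) span 250 bases before to 50 bases after a start. Of the 688 members, 38 overlapped at least 1 of them, and in 31 members a start lay within the peak. These 38 members shared bases with 45 windows of 41 genes, with a median of 192 shared bases. The stretches inside the peak are shown for 6 of them, 5′ to 3′ on the strand of the gene, with each TAAT or ATTA in capitals. Gm34098 holds the only inverted repeat found, Gm10637 ties with it for the most TAAT sites inside a peak, and Lncenc1 is a transcript of pluripotent cells. Gm20052 lies near Msx1, Gm41871 lies near Tcf7l2, and Snhg7 is a stretch with no such site.

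The stretches lie at chr1:80236200-80236384 (Gm34098, plus strand), chr8:87199801-87200091 (Gm10637, minus strand) and chr13:97434720-97435019 (Lncenc1, plus strand). The others lie at chr5:37893658-37893821 (Gm20052, plus strand), chr19:55700893-55701192 (Gm41871, plus strand) and chr2:26640195-26640363 (Snhg7, minus strand).
Gm34098: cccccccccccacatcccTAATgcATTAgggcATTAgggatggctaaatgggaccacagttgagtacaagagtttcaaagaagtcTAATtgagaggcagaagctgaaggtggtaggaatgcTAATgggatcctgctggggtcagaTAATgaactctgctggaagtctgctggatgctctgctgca
Gm10637: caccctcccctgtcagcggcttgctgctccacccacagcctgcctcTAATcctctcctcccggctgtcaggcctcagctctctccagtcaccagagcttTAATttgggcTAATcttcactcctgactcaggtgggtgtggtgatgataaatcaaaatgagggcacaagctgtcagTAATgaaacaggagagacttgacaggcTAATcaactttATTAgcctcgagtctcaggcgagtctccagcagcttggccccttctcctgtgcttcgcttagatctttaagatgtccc
Lncenc1: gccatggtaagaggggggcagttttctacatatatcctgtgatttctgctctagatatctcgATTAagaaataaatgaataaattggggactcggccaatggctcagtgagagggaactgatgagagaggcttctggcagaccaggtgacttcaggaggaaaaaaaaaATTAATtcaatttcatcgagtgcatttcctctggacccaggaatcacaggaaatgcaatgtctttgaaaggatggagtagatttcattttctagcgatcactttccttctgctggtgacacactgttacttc
Gm20052: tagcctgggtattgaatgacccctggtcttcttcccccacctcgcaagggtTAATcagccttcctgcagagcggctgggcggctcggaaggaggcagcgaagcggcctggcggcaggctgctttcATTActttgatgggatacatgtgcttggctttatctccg
Gm41871: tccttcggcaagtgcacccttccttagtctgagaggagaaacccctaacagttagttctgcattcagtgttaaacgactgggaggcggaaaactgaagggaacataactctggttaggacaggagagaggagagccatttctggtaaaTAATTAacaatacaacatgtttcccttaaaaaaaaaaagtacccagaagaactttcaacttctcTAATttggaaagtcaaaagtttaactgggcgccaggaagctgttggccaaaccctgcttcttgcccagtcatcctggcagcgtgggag
Snhg7: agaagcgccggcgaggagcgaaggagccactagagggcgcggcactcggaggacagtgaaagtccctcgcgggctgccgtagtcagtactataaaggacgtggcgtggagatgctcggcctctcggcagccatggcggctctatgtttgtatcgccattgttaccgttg

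In Gm34098 the 185 bases inside the peak held 6 TAAT or ATTA sites, and the first pair forms an inverted repeat with 2 bases between its arms. The 291 bases of Gm10637 also held 6 sites, those of Lncenc1 and Gm41871 held 3 each, those of Gm20052 held 2 and those of Snhg7 held none. Windows were searched for TAATNNATTA and TAATNNNATTA, which read the same on both strands, and for TAAT on either strand. A match to an inverted repeat also counts as TAAT matches. The repeat with 2 bases between its arms occurred in 1 of the 45 windows (2.22%, 95% Wilson interval 0.393 to 11.6) and in 54 of the 10712 other start windows of noncoding genes (0.504%). The repeat with 3 bases occurred in 0 of 45, which allows up to 7.87% (Wilson), and in 79 of 10712 (0.737%). A TAAT core was present in 33 of 45 windows (73.3%, interval 59 to 84) and in 69.4% of the others. The median was 1 site in both groups. These counts cover whole windows of 300 bases, also the bases outside the peak. The window of Snhg12, for example, held 3 sites, and its 68 bases inside the peak held none. The median GC content was 51.3% and 48.3%. For each of the 3 searches the interval included the share in the other windows, and 45 windows give little precision for the repeats. Some of the 45 windows share bases, among them those of Gm33224, yet the intervals treat all windows as independent. Most members lie elsewhere in their gene, and their sequence was not used here.

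Inside noncoding genes, most MIXL1 peaks lay in lncRNA genes, which also cover 156 of the 183.4 Mb that the class spans. Counting every host, 632 of the 688 members (91.9%) had an lncRNA host, 33 lay in pseudogenes, 9 in genes of the class misc_RNA and 4 in transcribed pseudogenes. Another 7 lay in loci of the class other, among them the immunoglobulin kappa locus Igk. Members per Mb of gene span were 4.06 in lncRNA genes (95% Poisson interval 3.75 to 4.39) and 6.58 in misc_RNA genes (3.01 to 12.5). They were 1.87 in pseudogenes (1.29 to 2.62) and 1.05 in transcribed pseudogenes (0.286 to 2.69). Small nucleolar RNA genes and small nuclear RNA genes held 2 members each. A transfer RNA gene and the V segment Trav3-3, inside the T-cell receptor locus Tcra, held 1 each. None of the 264 microRNA genes in the searched space held a peak centre, which allows a share of up to 1.43% (Wilson). A microRNA gene has a median span of 85 bp, so this count is limited by how little DNA such genes cover.

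Most noncoding genes had no member. Of the 17668 noncoding genes with searchable bases, 608 (3.44%) held at least 1 member. The share was 6.4% of lncRNA genes (561 of 8759), 0.442% of pseudogenes (28 of 6332) and 1.22% of transcribed pseudogenes (4 of 328). Among the 608 genes, 523 held 1 member, 66 held 2, 11 held 3, 7 held 4 and 1 held 5. In 33 members the centre lay inside 2 noncoding genes at once, so both are counted as hosts. For 493 members every host was a predicted gene with a Gm or LOC name, so most of these transcripts have no named function.

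Hosts were long, yet short lncRNA genes had more peaks per base. The median length was 24.1 kb for lncRNA genes with a member and 9.18 kb for all 8759. With these genes divided by length into 4 equal groups, the share with a member was 2.15, 3.93, 5.76 and 13.8% from the shortest to the longest group. In the same order the density was 9.94 (interval 7.3 to 13.2), 6.98 (5.61 to 8.57), 4.78 (4 to 5.66) and 3.36 (3.03 to 3.72) members per Mb. The intervals of the shortest and the longest group do not overlap.

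**Figure D1:**
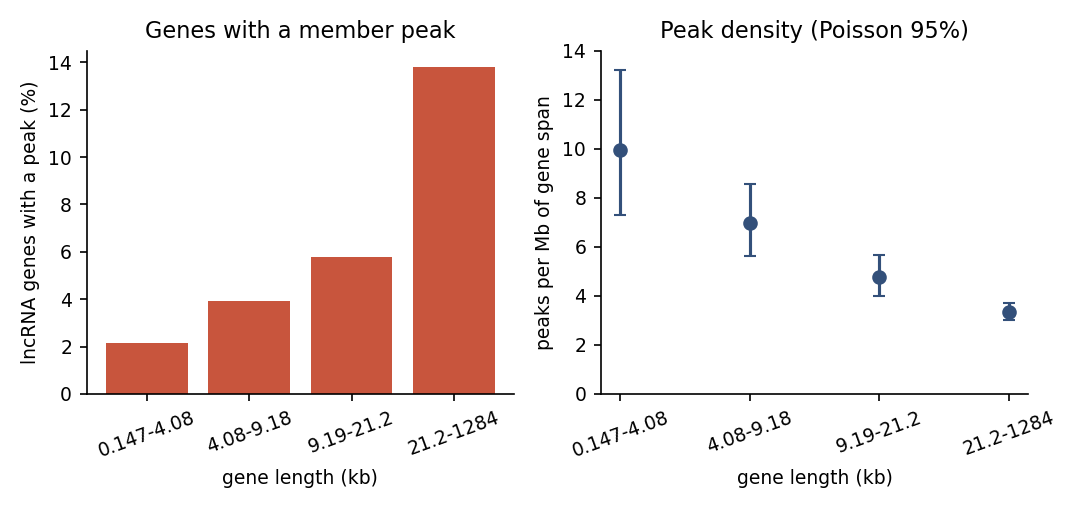
MIXL1 peaks in lncRNA genes by gene length in kb, in 4 groups of equal size. Left, the percentage of genes with at least 1 member, which rises from 2.15 to 13.8%; right, members per Mb of gene span with 95% Poisson intervals, which falls from 9.94 to 3.36.

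Within their hosts, the share of members within 1 kb of a transcription start exceeded the average share of host bases there. RefSeq gave strand and start for a host of 493 members, in 434 genes, which makes 516 pairs of a member and a host. The peak centre lay within 0.5 kb of a start in 41 pairs (7.95%, Wilson interval 5.91 to 10.6). On average over the pairs, 4.47% of the usable bases of the host lay that near. Every share of bases in this paragraph is such an average, in which a short host weighs as much as a long one. Within 1 kb the shares were 13.4% (10.7 to 16.6) of pairs and 8.89% of bases. Within 5 kb they were 37.4% (33.3 to 41.7) and 34.9%, so the interval includes the share of bases. At the far end of the gene the shares within 0.5 kb were 3.88% (2.52 to 5.91) and 4.03%. With each gene divided into 5 equal parts, the part next to the start held 24.2% of pairs (20.7 to 28.1) against 19.2% of bases. The middle part held 15.9% (13 to 19.3) against 20.2%, and the other 3 intervals include the share of bases. Pairs of 1 gene are not independent, and bases close to coding gene ends are not usable by the rule.

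**Figure D2:**
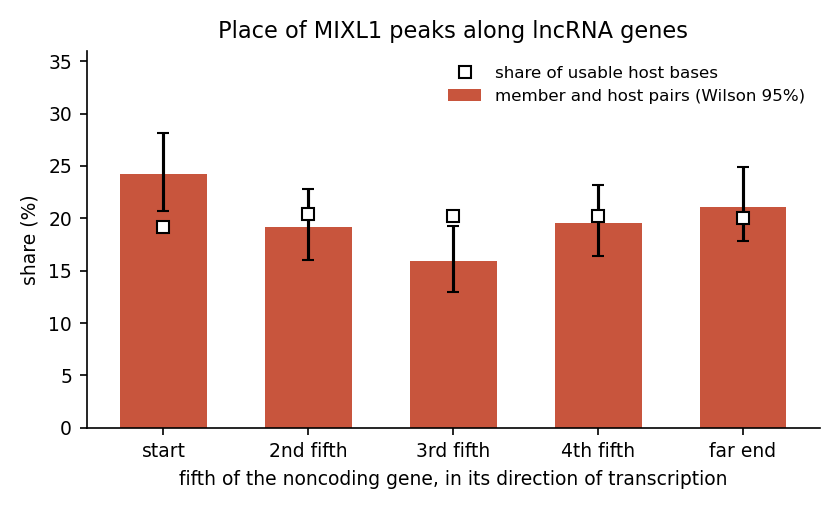
Share of the 516 member and host pairs in each of 5 equal parts of the host gene, in its direction of transcription (bars). Intervals are 95% Wilson. Squares give the share of usable host bases there, averaged over the pairs with equal weight. The bar next to the start, at 24.2%, lies above its square at 19.2%; the middle bar, at 15.9%, lies below its square at 20.2%.

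LncRNA genes that start back to back with a coding gene made up similar shares of those with and without a member, with overlapping intervals. Among lncRNA genes with known strand, 64 of 434 with a member (14.7%, interval 11.7 to 18.4) had a coding gene start on the opposite strand no more than 5 kb behind their own start, or overlapping it by up to 0.5 kb. The share was 14.4% (13.6 to 15.3) of the 6203 without a member. The median length was 24.4 kb for genes with a member and 9.14 kb for those without. Peaks within 1 kb of a coding gene end cannot be members, which limits the peaks counted near such starts. No conclusion is therefore drawn from the similar shares.

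Of 22 genes in the primitive streak and mesendoderm list, 4 were the nearest coding gene of 6 of the 688 members. For the 2713 peaks outside genes the counts were 10 genes and 18 peaks. Foxa2 encodes a forkhead factor of the node and of endoderm and has the lncRNA gene 9030622O22Rik on one side (chromosome 2, 147944459 to 148040513, minus strand). It held 2 members, at 148038529 to 148038807 and 148029160 to 148029858, or 4.21 and 13.4 kb from Foxa2. The first lay 1.84 kb from the outermost start of the lncRNA gene. Lhx1 encodes a LIM-homeodomain factor active in the anterior streak and is paired with Lhx1os on the opposite strand (chromosome 11, 84525660 to 84535831), which held a member at 84534491 to 84534853, 9.14 kb from Lhx1. Otx2, a homeobox gene of anterior epiblast and neural tissue, has the 124 kb gene Otx2os1 beside it, with members 42 and 86.4 kb away. The nearer one also lies inside Gm38660.

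Eomes encodes a T-box factor that endoderm formation needs, and it has a member 33.2 kb away at 118444788 to 118445282 of chromosome 9. It lies inside Platr11, one of the transcripts named as pluripotency-associated, and inside Gm33285. The rule draws its border at this same gene. The peaks just below the limit of 1 kb lay 990 and 987 bp from the ends of Eomes, inside the lncRNA genes Gm33460 and Gm33408, and do not count as members. Another lay 959 bp from Pkdcc, in Gm34686. The members just above it lay 1011 bp from Hnrnpa3 in Gm39859, 1060 bp from Cacna2d1 in Gm3510 and 1094 bp from Mfap3l in Gm34730. In all, 33 peaks met every other condition but lay within 1 kb of a coding gene end.

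Among genes of Nodal signalling, which induces mesendoderm, both Lefty genes had a member close by. Lefty2 and Lefty1 encode secreted Nodal inhibitors. A member of 1132 bp in Gm39714 (chromosome 1, 180883564 to 180884695) lay 8.98 kb from Lefty2, and one of 380 bp in Gm39715, at 180924679 to 180925058, lay 10.2 kb from Lefty1. Smad3, a signal transducer of the pathway, had a member 22.6 kb away, 0.149 kb from the start of Gm35941. In the Wnt list, the Frizzled receptor gene Fzd10 had a member 4.09 kb away in Fzd10os. Tcf7l2, which encodes a beta-catenin partner, had one of 1149 bp 41 kb away in 4930552P12Rik, and that peak covers the start of Gm41871 shown above.

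Msx1, a homeobox gene induced by BMP signalling, had 5 members around it, more than any other gene in the fixed lists. Gm33993 (chromosome 5, 37825755 to 37852040) held 3 of them, 1.4, 4.29 and 11.4 kb from Msx1, with widths of 354, 426 and 452 bp. Gm20052 held the other two at 69.2 and 70.7 kb, one across its start and one of 1547 bp. Its relative Msx2 had 3 members at 11.3, 47.8 and 285 kb, in Gm2762, Gm34022 and Gm34439. Id4, an inhibitor of basic helix-loop-helix factors, had members at 68.5 and 405 kb, and Bmp2, a BMP ligand gene, had one at 125 kb.

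In the neural list, the longest with 33 genes, 6 were the nearest coding gene of 16 members, at distances from 2.02 to 450 kb. In the list of 19 BMP and Id genes, 4 were the nearest of 11 members, from 1.4 to 405 kb away. Peaks outside genes also had their highest count, 40, by the neural list. En1, a homeobox gene of midbrain and hindbrain, had members 2.02 kb away in Gm34352 and 36.3 and 145 kb away in 2610027F03Rik. Sox2, a factor of neural and pluripotent cells, had a member 9.99 kb away inside Sox2ot, the lncRNA gene that spans Sox2. Members at 219 and 222 kb lay in Gm20515. Irx3os held 2 members 54.5 and 65.4 kb from Irx3. Pou3f1 had 4 members, all at 179 to 359 kb, and Irx1 had 2 at 436 and 450 kb, so nearest gene is a weak guide there.

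The Notch, FGF, mesoderm and endoderm lists gave further members. Hes1, a Notch target gene, had members 26.4 and 45 kb away in 9030404E10Rik and 4632428C04Rik. In the FGF list, Fgf15 had one at 1.31 kb in Gm26793, and Dusp6, which encodes a feedback phosphatase, had 3 at 184 to 196 kb. Meis1 and Meis2, homeobox genes of mesoderm, had members 5.87 kb away in 8430419K02Rik and 8.43 kb away in 2810405F15Rik. Mef2c, a cardiac and neural factor, had one at 48.3 kb in Gm52046, and Pyy of the endoderm list had one at 15.4 kb. Tbx3os1 held a member 56.8 kb from Tbx3.

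**Figure D3:**
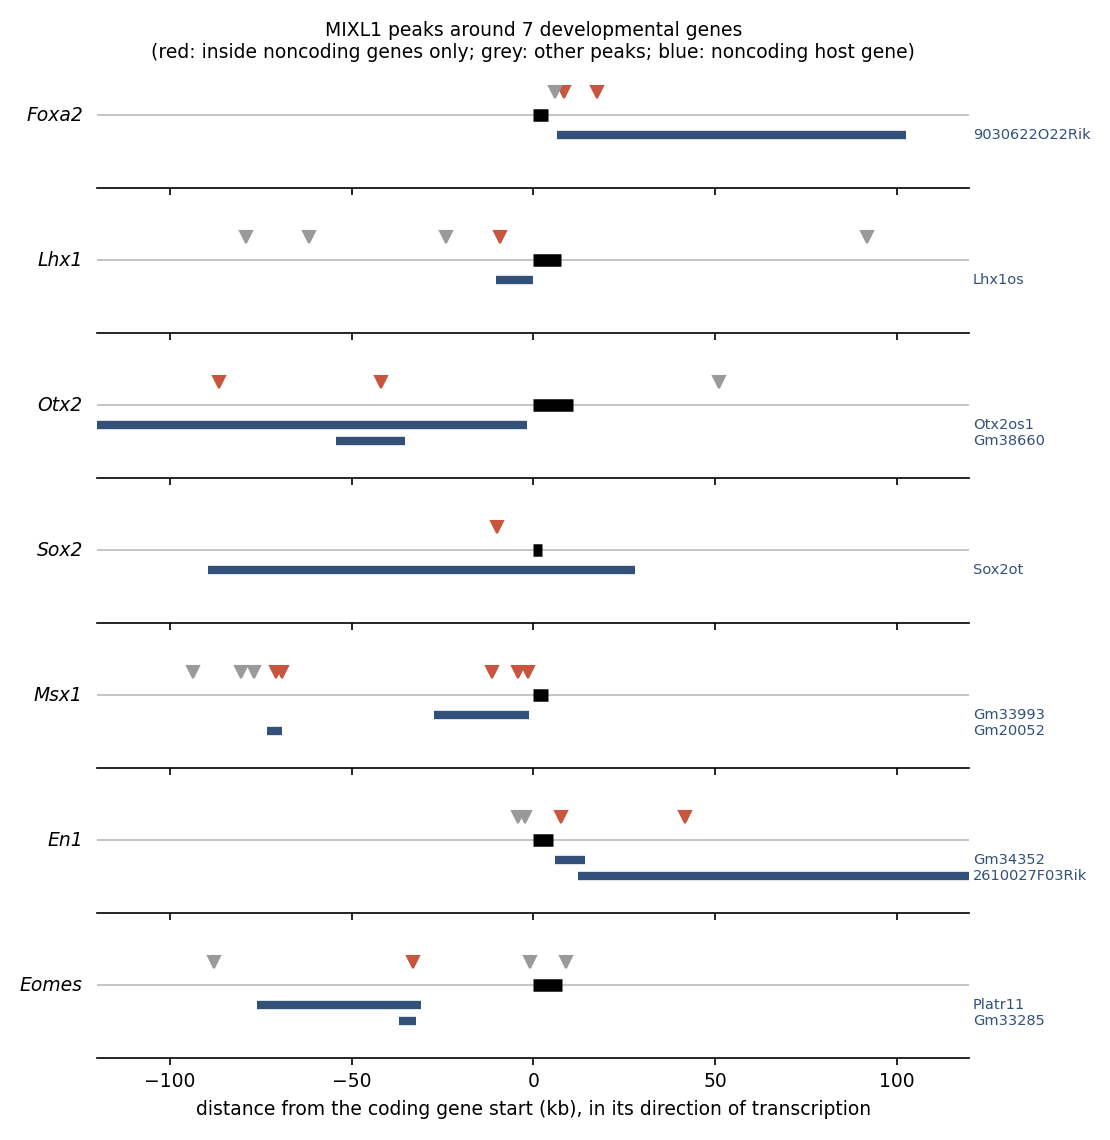
Position of MIXL1 peaks within 120 kb of the start of 7 coding genes, in kb along each gene's direction of transcription. Red triangles are members, grey triangles other peaks, black bars the coding gene and blue bars noncoding hosts; the 5 members near Msx1 form 1 group close to the gene in Gm33993 and another in Gm20052.

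Counted over all 10 coding lists, 49 members (7.12%, interval 5.43 to 9.29) had a listed gene as their nearest coding gene. Peaks outside all genes gave 148 of 2713 (5.46%, 4.66 to 6.37), and the intervals overlap. For BMP and Id genes the shares were 1.6% (0.895 to 2.84) and 0.663% (0.42 to 1.05), for neural genes 2.33% (1.44 to 3.74) and 1.47% (1.08 to 2). Primitive streak genes gave 0.872 and 0.663%, definitive endoderm genes 0.436 and 0.405%, and Nodal and Activin genes 0.581 and 0.295%. FGF genes gave 0.581 and 0.7%, Wnt genes 0.291 and 0.516%, Notch genes 0.291 and 0.332%, pluripotency genes 0.581 and 0.221% and mesoderm and heart genes 0.581 and 0.848%. Each of these 10 pairs of intervals overlaps. The lists share genes, so a member can count in several.

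In the list of pluripotency transcripts, 6 of 21 genes in the searched space held a member (28.6%), with 10 members in all. Sox2ot is 1 of the 6 and counts again among the genes named as lying opposite or overlapping a coding gene. The genes of this list had a median length of 10.9 kb, against 9.18 kb for all lncRNA genes, of which 6.4% held one. The 6 genes with a member span 24.2 to 118 kb. In the longest group of lncRNA genes, from 21.2 kb up, 13.8% held a member. Lncenc1 (chromosome 13, 97434970 to 97497664), an lncRNA of embryonic stem cells, held a peak of 2084 bp that covers its start. Platr25 held 4 members within 37.9 kb, Platr6 held 2, and Platr22, Platr11 and Sox2ot held 1 each. The peak in Platr22 lay 2.6 kb from its start, and the peaks in Platr6 lay 18.8 and 23.1 kb from its outermost start.

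Small nucleolar RNA host genes, short and broadly transcribed, had members in 3 of 14 cases (21.4%), against 6.4% of lncRNA genes and 3.44% of all noncoding genes. With so few genes in this list and in those of developmental and growth-control RNAs, 1 gene more or less moves the share by several percentage points. Snhg12 (chromosome 4, 132308678 to 132311024) held 2 in its 2.35 kb, one of which, 939 bp wide, covers the start. The peak in Snhg7 covers the start with its centre 0.113 kb away, and Gas5 held 1 member. Of the genes named as lying opposite or overlapping a coding gene, 9 of 118 (7.63%) held a member, near the 6.4% of all lncRNA genes, with median lengths of 12.1 and 9.18 kb. Beside those named above they are Zmiz1os1 with 2 members, Gad1os and Chn1os3. In the list of developmental RNAs 3 of 11 held one (27.3%, against the same 6.4%): Rmst, an RNA of neural progenitors, 9030622O22Rik, and Halr1. These span 83.4, 96.1 and 10.7 kb, in a list with a median length of 10.7 kb.

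Of the imprinted RNAs only 3 were in the searched space. Airn, which silences Igf2r in cis on the paternal copy, held 2 members 42.2 and 49.7 kb from its start, 848 and 1193 bp wide. Pvt1, the neighbour of Myc, and Morrbid, near the apoptosis gene Bcl2l11, held 1 member each. That makes 2 of 9 genes of nuclear bodies and growth control (22.2%, against 6.4% of lncRNA genes). This list had a median length of 22.6 kb, against 9.18 kb for lncRNA genes, and the 2 hosts span 222 and 131 kb. In the longest group of lncRNA genes, from 21.2 kb up, 13.8% held a member. The members in Pvt1 and Morrbid lay 157 kb from Myc and 151 kb from Bcl2l11.

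Of 262 microRNA genes and host genes in the searched space, 3 held a member (1.15%, below the 6.4% of lncRNA genes and the 3.44% of all noncoding genes). Most of this list is hairpin-sized, with a median length of 0.088 kb. The 4 members lay in Mir9-3hg, with 2, Mir99ahg and Mir670hg. Shown are the mature microRNAs of Mir9-1, Mir9-3, Mir129-2 and Mir1897, the hairpins nearest to a member of their host once those that overlap them are set aside, with the seed, bases 2 to 8, in capitals (RefSeq, GRCm38.p6). The Mir9-1 and Mir9-3 genes give the same mature pair and so share both seeds.
miR-9-5p: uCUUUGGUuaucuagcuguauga
miR-9-3p: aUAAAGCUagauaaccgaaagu
miR-129-5p: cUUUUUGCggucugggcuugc
miR-129-2-3p: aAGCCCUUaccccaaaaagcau
miR-1897-3p: uCAACUCGuucuguccggugag

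Mir9-3, a gene of the neural microRNA miR-9 (chromosome 7, 79505264 to 79505353), lay 0.639 kb from the centre of a member of 346 bp at 79505819 to 79506164. Mir9-1 (chromosome 3, 88215598 to 88215686) lay inside Gm3764, 5.32 kb from the member at 88220829 to 88221178. The remaining copy, Mir9-2, lies inside C130071C03Rik on chromosome 13, and its nearest peak was a member 23.4 kb away, in Gm52046. For all 3 copies the nearest peak of any class was a member. Mir9-1 and Mir9-3 were drawn from hosts that hold a member, so a member near them was given in advance. Mir129-2 in Mir670hg lay 4.16 kb from a member and Mir1897 in Sox2ot 1.47 kb. The copies of Mir9 and Mir1897 were looked up after the values of their hosts had been seen.

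By number of members the leading host was Gm34032 (chromosome 16, 31476082 to 31578483), with 5 members of 410 to 1372 bp over 51.9 kb, the nearest of them 41 kb from Bdh1. Those with 4 were C230014O12Rik, Gm1604a, Gm30382, Gm31698, Igk, Naip3 and Platr25. C230014O12Rik spread its 4 over 75.6 kb, the nearest 64.6 kb from the homeobox gene Pbx3, and Gm31698 over 16 kb. Igk spans 3171 kb, so its 4 members come to 0.00126 per kb. Naip3 is a pseudogene among close copies of Naip genes, and whether reads of those copies could be told apart was not tested. Its 4 members lay within 8.68 kb. Another 11 genes held 3 members each, and the 4 first by symbol were 2610307P16Rik, with a member 95.6 kb from Sox4, 3100003L05Rik, 4933427I22Rik and 5730522E02Rik. The 3 in 4933427I22Rik lay within 8.37 kb of a 17.4 kb gene, or 0.172 per kb, the highest rate among the 12 hosts named.

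The widest member spanned 3099 bp in A730081D07Rik (chromosome 13, 40961634 to 40964732), 2.29 kb from Gcnt2. Peaks of 2773 and 2708 bp lay in the pseudogenes Gm51498 and Gm2048, one of 2378 bp in Gm1604a, and those of 2189 and 2134 bp in Gm38566 and Gm35712. Lncenc1 followed with 2084 bp, then Gm34295 with 2080, Gm51645 with 1811 and Gm29243 with 1806 bp. Lncenc1 and Gm51645 are the 2 of these 10 in which RefSeq places a start of the host within the peak, and 4 of the 10 hosts had a listed start.

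The median width of members was 494 bp (interval 468 to 529), with quartiles of 362 and 753 bp. It was 476 bp (467 to 487) inside coding genes, 479 bp (468 to 492) outside genes and 407 bp (390 to 425) at coding gene ends. Peaks of 1 kb or more made up 12.1% of members (9.84 to 14.7), 10.2% inside coding genes (9.2 to 11.3), 12.2% outside genes (11 to 13.4) and 4.09% at gene ends (2.69 to 6.16). Members were thus wider than peaks at gene ends by intervals that do not overlap, and their intervals overlap those of the other two classes.

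**Figure D4:**
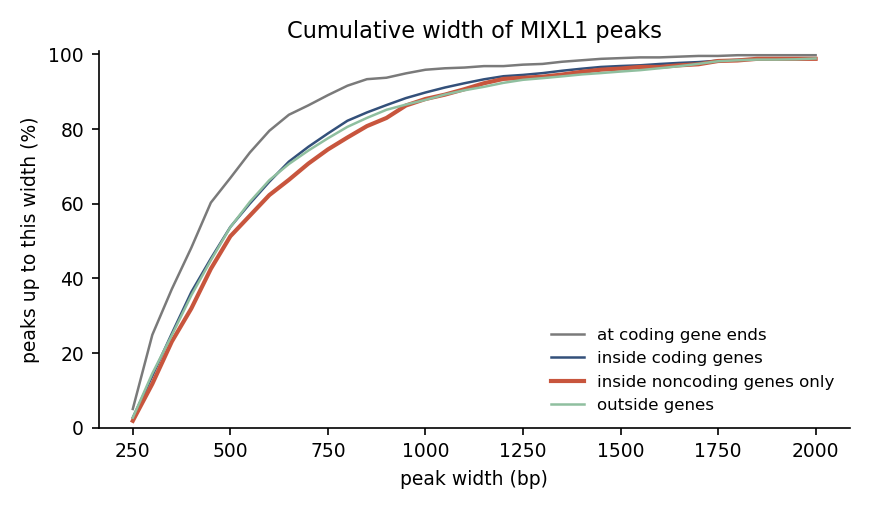
Cumulative percentage of peaks up to each width in bp, for members and the other 3 classes on the same chromosomes and windows. The curve of members (median 494 bp) runs close to those inside coding genes (476 bp) and outside genes (479 bp), and that at coding gene ends (407 bp) rises earlier.

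Another peak lay within 10 kb of 163 members (23.7%, interval 20.7 to 27). The share was 19.6% (18.2 to 21) inside coding genes, 20.8% (19.3 to 22.3) outside genes and 15.8% (12.9 to 19.2) at gene ends. Of these, the interval at gene ends alone lies apart from that of members. Within 50 kb the shares were 53.3% of members (49.6 to 57) and 46.1% at gene ends (41.8 to 50.4), and these intervals overlap. Joined at 10 kb with other members only, peaks of other classes being ignored, members formed 583 lone peaks, 43 pairs, 5 groups of 3 and 1 group of 4, in Naip3. The groups of 3 lay in Gm33993 beside Msx1, Platr25, Gm35035 and Gm34983 on the side of Dusp6, Gm38446 and Gm51645, and Gm1667 and 4933427I22Rik.

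The nearest coding gene was a median of 40.3 kb away (interval 33.2 to 45), with quartiles of 14.3 and 113 kb. For peaks outside genes the median was 36.7 kb (33.8 to 39.7). Between 1 and 5 kb lay 9.74% of members, between 10 and 50 kb 37.9%, and beyond 100 kb 26.3% up to 500 kb and 1.74% farther still.

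The class as a whole held 9.75% of the 7058 peaks (interval 9.08 to 10.5) on 8.1% of the 2265 Mb searched, or 1.2-fold (1.12 to 1.29). The ratio was 2.33 at coding gene ends, 1.13 inside coding genes and 0.78 outside genes. These ratios follow from the positions that defined the classes and are given as a description. Per Mb of its own span the class had the most members on chromosome 11, at 7.33 (5.68 to 9.3), and the fewest on chromosome 3, at 2.55 (1.77 to 3.57). Over all classes chromosome 11 was also the densest of the 18 with 4.83 peaks per Mb, and chromosome 3 the sparsest with 2.22.

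**Figure D5:**
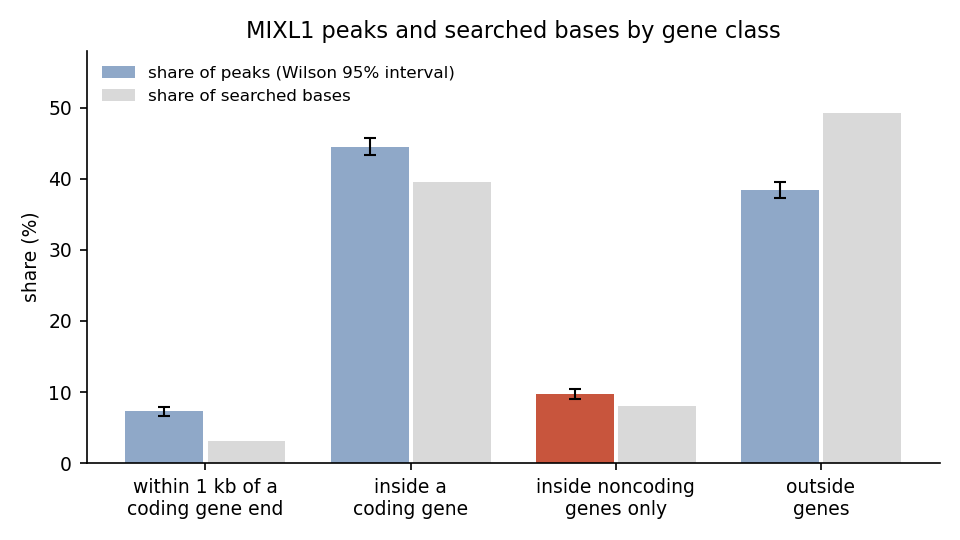
Share of the 7058 peaks in each gene class (coloured bars, members in red, with 95% Wilson intervals) beside the share of searched bases (grey bars). Members make up 9.75% of peaks on 8.1% of bases.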

How the data were processed

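The deposited file gives chromosome, start and end of each peak, in mm10 per the submitters' processing notes, which also name CASAVA 1.8.2, Bowtie2, SAMtools and MACS2. How MACS2 was run (threshold, filtering, input, pooling of replicates) is not given in the sources used here, and the deposited file holds no value but positions. The members and the lists were chosen with earlier results of these data known.

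Peaks were classed by their centre against the spans of 49669 genes in NCBI RefSeq GRCm38.p6, of which 21795 are protein-coding. Exons were not separated. Genes starting below 3 Mb on autosomes (328) were left out, since scaffold genes without a chromosomal place are listed there too. The searched length ran from 3 Mb to the last gene end, without dense windows, and assembly gaps were not removed from it. Starts and strand came from RefSeq start windows, given for 6637 of the 8759 lncRNA genes. Intervals are Wilson for shares, exact Poisson for densities and from order statistics for medians. Whether replicates came from separate cultures is not stated. The class rule was checked on simulated positions. Named genes were the 12 hosts with the most members (ties by symbol), hosts of the 10 widest, every host in 7 noncoding lists and up to 3 members a coding list, with others from the same tables chosen after their values were seen. Of the motifs set in the design, those with 2 and 3 bases between the arms were searched. Alternatives covered the gene-end limit, dense windows, overlap, gene classes, chromosome 12 and wider peaks. Python 3.11.15, numpy 2.4.6, pandas 2.3.3, scipy 1.17.1 and matplotlib 3.10.9 were used.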

Additional observations from a re-analysis of the deposited data

How the results depend on the processing

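The class held more of the peaks than of the searched bases under all 10 alternatives tried. The main ratio of 1.2 became 1.32 with any overlap of peak and gene, 1.3 with dense windows kept in, 1.3 with lncRNA genes only and 1.12 with the whole peak inside the gene, and stayed inside its interval under the other 6. The share of peaks in the class (9.75%) became 10.7, 10.6, 8.95 and 9.07% in the same order, 8.8% beyond 5 kb from coding gene ends and 2.76% without predicted genes. Without predicted genes 195 members in 155 genes were left of 688 in 608, and the wider 50% of the peaks gave 351 in 329. Peaks of 1 kb or more (12.1%) made up 23.6% of that wider part, as its construction implies, and 9.77% where windows of 10 or more peaks were left out. Members with a peak within 10 kb (23.7%) were 17.9% there, 32.9% with dense windows kept in, and 53.3% when 50 kb was used. The median distance to a coding gene (40.3 kb) became 46.8 kb beyond 5 kb from gene ends, again by construction. Several other moves also have a direction fixed by construction. Any overlap can only add members and the whole-peak rule can only remove them, while the share of bases stayed as in the main setting. Fewer gene classes or a limit of 5 kb can only lower the share of peaks. A limit of 50 kb can only raise the share of members with a neighbour. For the remaining moves the cause was not tested. The list has no score, so width stood in for a stricter threshold. No paired analysis was possible because the list has no column for a library, and no replicate could be left out for the same reason. Depth is unknown, so a gene without a peak may still be bound below the unknown threshold.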

Other observations

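The rule left out peaks that met its gene conditions in dense windows and on other chromosomes. In 18 windows of 20 or more peaks on the same 18 autosomes, 139 such peaks lay inside noncoding genes, and 2 lncRNA genes held many of them. Gm32041 (chromosome 14, 6848515 to 6994160) had 34, and Snhg14 (chromosome 7, 59272737 to 60450177), the imprinted host of repeated small nucleolar RNA genes, had 26. The 9 of these peaks in windows of exactly 20 lie next to the limit on one side, and 5 members in windows of 19 on the other.

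Chromosome 12 had 416 peaks inside noncoding genes only, and the immunoglobulin heavy-chain locus Igh, a RefSeq entry of the class other, held 243 of them. Its light-chain counterpart Igk held 4 members. Rian, an imprinted RNA gene that also hosts small nucleolar RNAs, had 4 peaks on chromosome 12. Chromosome X had 4 peaks of this kind.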
